A study of Homo sapiens with 18 samples.

Results

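The 10 genes described here, E2F1, E2F2, E2F3, E2F7, E2F8, RB1, RBL1, RBL2, FOXM1 and MYBL2, encode transcription factors and repressors that set the pace of the cell cycle. They were taken by name as the E2F, RB and FOXM1 regulators out of 38716 gene symbols in the tables. Their mRNA was followed as mRNA-seq reads in the 5′ UTR, CDS and 3′ UTR, and their ribosome footprints as Ribo-seq reads in the CDS, across young, old and ICM cells. All cells were IMR90, a line of fibroblasts from human fetal lung, and the 18 libraries formed 6 groups of 3 replicates. Young cells were proliferating at low passage, old cells had been passaged to replicative senescence, and ICM cells were low-passage cells kept for 6 days in inflachromene (ICM), a small molecule that binds HMGB1 and HMGB2. The concentration of ICM was not stated for this experiment in the sources used here. Per the methods, the replicates were independent, and each lysate, made with cycloheximide, gave both a Ribo-seq and a poly(A) mRNA-seq library. Young and ICM cells therefore differ by 6 days of treatment with the compound, and young and old cells by passage, all within 1 cell line. For this experiment the study's methods do not state whether young cells received vehicle or matched days in culture.

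In the textbook account, the pocket proteins RB1, RBL1 (p107) and RBL2 (p130) hold E2F factors in check until cyclin-dependent kinases phosphorylate them. Freed activators, E2F1, E2F2 and E2F3, switch on genes for DNA replication, and the atypical E2F7 and E2F8 later shut the same genes off. MYBL2 (B-MYB) then joins the MuvB complex and, with FOXM1, drives the genes of mitosis, and in cells that leave the cycle RBL2 with E2F4 and MuvB forms the repressive DREAM complex.

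The mRNA-seq libraries held 7902427 to 14144455 reads in coding genes, whereas CDS reads in Ribo-seq ran from 46239 to 1718521, so that the mRNA carried most of what could be said of these genes. Young replicate 1 and old replicate 2 stood apart in Ribo-seq, with 34.4% and 15.0% of their reads in the CDS. Fibroblast genes were abundant in every mRNA-seq library (COL1A1 at 2962 to 15352 CPM, counts scaled to library size), with the exception of S100A4 at 0.826 to 7.12 CPM. The 9 fibroblast genes summed to 28715.4 to 32518.7 CPM in young, 27041.3 to 30397 in old and 12152.5 to 12633.5 in ICM. The part of this lower sum in the results was not tested. Defining genes of other lineages were at or near 0, as for CDH5 and CD3E at 0 throughout, apart from CD68 at 19.4 to 65.2 CPM and VWF, which reached 3.90 CPM. The 3 endothelial genes summed to 0.610 to 0.667 CPM in young, 0.834 to 1.04 in old and 3.53 to 4.41 in ICM, and their part in the results was not tested.

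Several of these regulators are themselves textbook E2F targets, and the sequences next to their start sites are shown for that reason. RefSeq promoters (GRCh38.p14, 250 bases before to 50 after the start) were at hand for 8 of the 10 genes, all but E2F8 and FOXM1. An E2F motif was searched as TTTCCCGC, TTTGGCGC, TTTGCCGC or TTTCGCGC on both strands, and 4 of these 8 genes held it, E2F1, E2F2, E2F3 and RBL1, against 3.31% of 35116 promoters of the same length. The 30 bases around the matches are printed 5′ to 3′ on the gene's strand with each match in capitals.
E2F1 (chr20:33686393-33686422, minus strand): tttcGCGGCAAAaaggaTTTGGCGCgtaaa
E2F2 (chr1:23531257-23531286, minus strand): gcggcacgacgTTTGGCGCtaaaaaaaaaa
E2F3 (chr6:20401815-20401844, plus strand): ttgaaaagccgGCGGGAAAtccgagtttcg
RBL1 (chr20:37096000-37096029, minus strand): gcagatTTTCGCGCgcTTTGGCGCaggtgg
E2F1 and RBL1 each held 2 matches close together, the nearest ending 13 and 9 bases before the start. RB1, RBL2, E2F7 and MYBL2 had no match to these letters in the window. The CHR element TTTGAA, found at many promoters of mitotic genes, was present in E2F3 and RBL2 only, 2 of 8 genes against 15.2% of all promoters, and CCAAT in 4 of 8 (E2F1, E2F3, E2F7 and RBL2) against 34.6%. For all 3 motifs a gene counted if any of its promoters matched, with 10 promoters for the 8 genes. The shares of all promoters are per promoter, so the units differ. A match is a string of letters and not a bound site, and the matched genes did not share a course in the data, since E2F1, E2F2 and RBL1 mRNA fell with ICM and E2F3 mRNA was not called.

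Comparing ICM with young cells asked how the compound changed these regulators. Of the 10 mRNAs, 7 fell, 0 rose and 3 did not pass the test (edgeR, adjusted p under 0.05). This is to be read against a background in which 71.0% of the 13173 genes tested were called and 36.1% were called down. The median log2 change of the 10 was -2.55, beside -0.01 for all genes tested. MYBL2, E2F8 and FOXM1 lost the most, with E2F8 at 0 reads in ICM, E2F2, E2F7, E2F1 and RBL1 fell several-fold, and E2F3, RB1 and RBL2 had changes close to 0. All ICM libraries lay below all young ones for the 7 genes that fell, a pattern found in 37.6% of all genes. In these bulk libraries, fewer cells in cycle and less RNA per cell cannot be told apart. The comparisons with young cells share the young libraries, so their agreement is not independent.

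**Figure D1:**
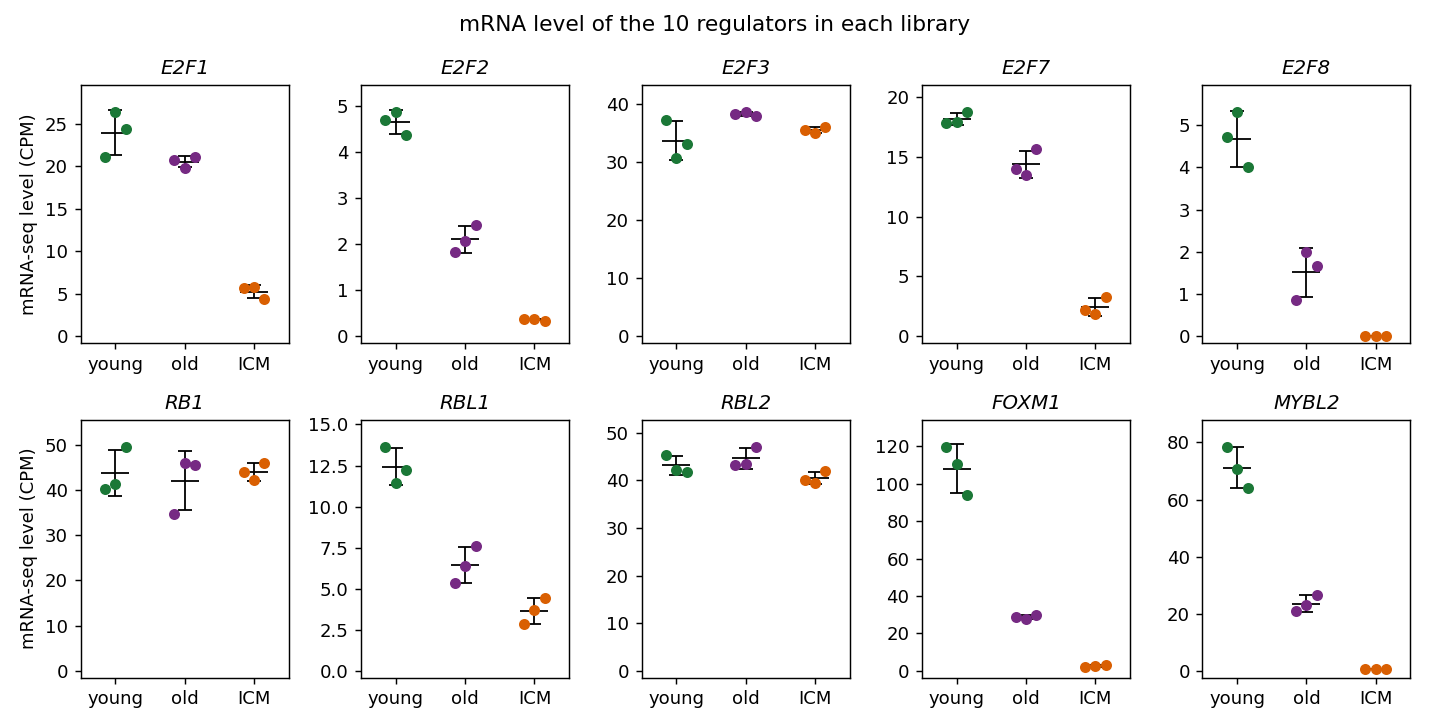
mRNA level of each regulator in CPM (y axis, linear from 0) in young, old and ICM libraries, with points for single libraries and bars for mean and SD (n = 3). FOXM1 and MYBL2 step down from young to old to ICM, E2F1 and E2F7 are close in young and old and low in ICM, and E2F3, RB1 and RBL2 lie at similar heights in all 3.

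FOXM1, the forkhead factor of the mitotic programme, lies at chr12:2966846-2986340 (GRCh37, minus strand). Its mRNA stood at 119.75, 110.38 and 93.99 CPM in young replicates 1 to 3, at 29.03, 27.51 and 29.66 in old, and at 2.10, 2.41 and 3.31 in ICM. The 3 conditions formed separate steps with no overlap. Against young, ICM cells held 41.4-fold less (log2 change -5.37, SE 0.13, edgeR adjusted p = 1.03e-19) and old cells 3.76-fold less (-1.91, SE 0.09, adjusted p = 3.22e-14). ICM was also below old, by 11.03-fold (-3.46, SE 0.15, edgeR adjusted p = 3.94e-15). An exon of FOXM1 shares 782 bases with ITFG2 on the opposite strand, and whether reads were counted by strand is not given in the sources used here. With CDS reads alone the FOXM1 change in ICM was -5.41.

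MYBL2, the MYB-family partner of MuvB at chr20:42295659-42345135 (GRCh37, plus strand), changed even more in ICM. Young libraries held 78.55, 70.80 and 64.15 CPM, old libraries 20.86, 23.21 and 26.61, and ICM libraries 0.60, 0.65 and 0.68. No library of a condition reached the next. ICM lowered it 109-fold against young (log2 change -6.77, SE 0.16, edgeR adjusted p = 1.12e-19), on 23 reads in the ICM libraries summed. In old cells it was 3.00-fold lower (-1.59, SE 0.09, edgeR adjusted p = 8.56e-13), and ICM lay 36.2-fold below old (-5.18, SE 0.19, adjusted p = 3.14e-16). The fall of FOXM1 and that of MYBL2 were of unequal size. Per base of transcript the ratio of FOXM1 to MYBL2 was 1.14 ± 0.04 in young cells, 0.92 ± 0.11 in old cells and 3.03 ± 0.56 after ICM (mean ± SD, n = 3), and the ICM ratios, at 2.63 to 3.66, did not overlap those of the other conditions.

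E2F1, the best-known activator E2F (chr20:32263283-32274191, GRCh37, minus strand), was lowest in ICM cells and close in young and old. It stood at 21.10, 26.42 and 24.40 CPM in young, 20.75, 19.80 and 21.14 in old and 5.63, 5.74 and 4.32 in ICM. ICM libraries lay well below both others, while the highest old library passed the lowest young one. The fall in ICM was 4.61-fold against young (log2 change -2.20, SE 0.12, edgeR adjusted p = 2.98e-13) and 3.92-fold against old (-1.97, SE 0.12, edgeR adjusted p = 3.80e-12). In old cells E2F1 was only 1.18-fold lower (-0.23, SE 0.10, edgeR adjusted p = 0.0407), and this call was lost with DESeq2 (adjusted p = 0.116), with the compared conditions alone (0.0597) and with CDS reads only (0.212). Leaving out young replicate 2 or 3, old replicate 1 or 2, or ICM replicate 1 also ended it, with changes of -0.16, -0.23, -0.24, -0.20 and -0.23.

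E2F2, a second activator (chr1:23832930-23857725, GRCh37, minus strand), was scarce and fell in both arrested states. Its libraries held 4.72, 4.88 and 4.38 CPM in young, 1.83, 2.08 and 2.41 in old, and 0.38, 0.37 and 0.34 in ICM. The order was young, old, ICM without overlap, although the ICM libraries held only about 12 reads in all, an estimated count that is 13 after rounding each library. ICM was 12.5-fold below young (log2 change -3.65, SE 0.27, edgeR adjusted p = 3.98e-11) and old 2.20-fold below young (-1.14, SE 0.19, edgeR adjusted p = 1.25e-05). Between ICM and old the difference was 5.69-fold (-2.51, SE 0.32, adjusted p = 3.91e-07).

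E2F3, the third activator (chr6:20402110-20493945, GRCh37, plus strand), was the member of the activator group that did not fall. Counts were per gene symbol, so the transcripts of this gene were not told apart. Young libraries held 37.35, 30.78 and 33.08 CPM, old libraries 38.38, 38.70 and 37.91 and ICM libraries 35.53, 35.06 and 36.12, so that young and ICM overlapped. The ICM change of 0.09 was not called (95% interval -0.08 to 0.25, edgeR adjusted p = 0.343). All old libraries lay above all young ones and the rise of 0.19 (SE 0.08, edgeR adjusted p = 0.0362) passed the test, yet it was lost with DESeq2 (adjusted p = 0.0684), without the scaling factor (0.284) and with CDS reads only (0.509). It was also lost without young replicate 2 or 3 or old replicate 1 or 2, at 0.13, 0.18, 0.19 and 0.19. ICM libraries lay below old ones without overlap, a difference that did not pass the test (-0.11, 95% interval -0.27 to 0.05, edgeR adjusted p = 0.228).

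The atypical repressors E2F7 (chr12:77415028-77459349, GRCh37, minus strand) and E2F8 (chr11:19245610-19263167, GRCh37, minus strand), which bind DNA without a DP partner, both fell. E2F7 stood at 17.87, 17.96 and 18.78 CPM in young, at 13.98, 13.49 and 15.67 in old and at 2.18, 1.85 and 3.31 in ICM, 3 separate ranges of which the first 2 lay close. It fell 7.41-fold in ICM (log2 change -2.89, SE 0.15, edgeR adjusted p = 1.18e-13) and 1.27-fold in old (-0.34, SE 0.11, adjusted p = 0.00971). From old to ICM the fall was 5.83-fold (-2.54, SE 0.16, edgeR adjusted p = 2.59e-12).

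For E2F8 the values were 4.72, 5.32 and 4.00 CPM in young, 0.86, 2.00 and 1.67 in old, and 0 in each ICM library. The ICM libraries together held no E2F8 read, where 3 reads would be 0.0835 CPM, so E2F8 was at least 56.2-fold lower than in young and at least 18.9-fold lower than in old (edgeR adjusted p = 1.10e-10 and 3.54e-07). It entered the test of ICM against old through the young libraries, and with the ICM and old libraries alone it did not pass the low-count filter, so that 6 of 9 regulators tested were called. Old cells held 2.97-fold less than young (log2 change -1.57, SE 0.24, edgeR adjusted p = 8.64e-06). The ratio of E2F8 to E2F7 per base of transcript was 0.398 ± 0.0646 in young and 0.163 ± 0.0671 in old (mean ± SD, n = 3), with no overlap.

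Among the pocket proteins, RB1 (chr13:48877880-49173572, GRCh37, plus strand), the retinoblastoma protein, did not pass the test in mRNA in any comparison. It stood at 40.21, 41.33 and 49.57 CPM in young, 34.62, 46.04 and 45.52 in old, and 43.94, 42.10 and 45.95 in ICM. All 3 conditions overlapped. The log2 change was 0.01 in ICM (95% interval -0.19 to 0.21), -0.05 in old (-0.25 to 0.15) and 0.06 from old to ICM (-0.14 to 0.25), with edgeR adjusted p = 0.953, 0.675 and 0.628. RBL2 (chr16:53467889-53525560, GRCh37, plus strand), the p130 of DREAM, stood at 45.42, 42.11 and 41.85 CPM in young, 43.22, 43.52 and 47.09 in old, and 40.19, 39.51 and 41.97 in ICM. Its changes were -0.09 in ICM (95% interval -0.24 to 0.07, edgeR adjusted p = 0.300) and 0.05 in old (-0.10 to 0.20, adjusted p = 0.541). Its ICM libraries all lay below its old ones, at -0.14 (-0.29 to 0.01, edgeR adjusted p = 0.0989), short of the threshold. RBL2 shares 609 exonic bases with AKTIP on the opposite strand, and its changes with CDS reads alone were -0.04 and 0.06.

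RBL1 (chr20:35624752-35724400, GRCh37, minus strand), the p107 that is itself made as cells enter S phase, fell where its relatives did not. Young libraries held 13.65, 11.42 and 12.20 CPM, old libraries 5.38, 6.38 and 7.60, and ICM libraries 2.85, 3.70 and 4.41, with no overlap. The falls were 3.39-fold in ICM (log2 change -1.76, SE 0.16, edgeR adjusted p = 1.38e-09), 1.90-fold in old (-0.93, SE 0.14, edgeR adjusted p = 6.89e-06) and 1.79-fold from old to ICM (-0.84, SE 0.18, adjusted p = 2.73e-04). RBL1 shares 213 exonic bases with a lncRNA on the other strand, and with CDS reads alone its change in ICM was -2.25 (SE 0.19).

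Senescence was addressed by old against young, in which 7 mRNAs fell, 1 rose (E2F3) and 2 did not pass the test, with 66.1% of all genes called, 33.7% down and 32.4% up. Old libraries lay wholly below young ones for 6 of the 10 and wholly above for 1, beside 34.4% and 32.7% of all genes. ICM against old set both states side by side, and here 7 fell, 0 rose and 3 did not pass, with 63.3% called and 32.6% called down. ICM libraries lay wholly below old ones for 9 of the 10, all but RB1, beside 33.7% of all genes. The median log2 change of the 10 was -0.63 in old against young and -2.24 in ICM against old, beside -0.01 for all genes in each.

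**Figure D2:**
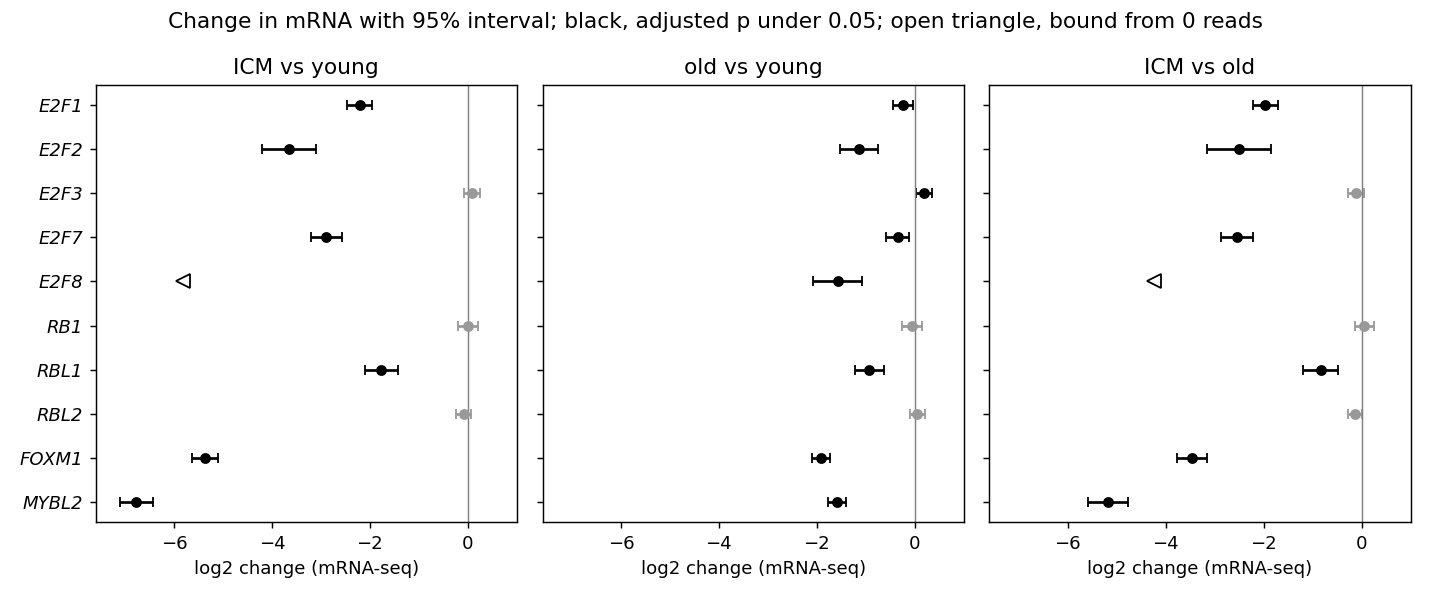
Log2 change in mRNA (x axis) of each regulator for 3 comparisons, with 95% intervals. Black points passed edgeR at an adjusted p under 0.05 and grey ones did not. Open triangles place E2F8, at 0 reads in ICM, as if it had 3 reads there. In ICM vs young the points run from MYBL2 at -6.77 to E2F3 at 0.09, and in old vs young E2F1, E2F3 and E2F7 lie near 0.

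Levels were compared between genes as CDS reads of mRNA-seq per kb of coding sequence, scaled to the CDS reads of the library (RPKM). In young cells FOXM1 led at 53.9 ± 6.64 and MYBL2 followed at 48.7 ± 4.50 (mean ± SD, n = 3), with overlapping ranges. Below them, without overlap to MYBL2, came RB1 at 18.2 ± 2.03, E2F1 at 17.0 ± 2.08 and RBL2 at 15.8 ± 0.62, each overlapping the next, then E2F3 at 12.2 ± 1.98, E2F7 at 6.53 ± 0.46, RBL1 at 4.25 ± 0.44, E2F8 at 2.56 ± 0.52 and E2F2 at 1.53 ± 0.21, each clear of its neighbour. In old cells the first 6 places, from RB1 at 16.6 ± 2.62 through RBL2, MYBL2, E2F1 and FOXM1 to E2F3 at 12.3 ± 1.05, could not be separated from their neighbours. In ICM the order opened again, with RB1 at 19.6 ± 0.99, RBL2 at 15.7 ± 1.25 and E2F3 at 12.4 ± 0.53 on top and clear of each other. E2F1 at 4.10 ± 0.20 and FOXM1 at 1.30 ± 0.52 came next, and MYBL2, second in young cells, stood eighth at 0.50 ± 0.04.

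The make-up of both families shifted accordingly, and shares within a library do not depend on how libraries are scaled. E2F3 made up 30.6% ± 4.89 of the summed level of the 5 E2F genes in young cells, 37.1% ± 1.54 in old cells and 71.0% ± 1.20 after ICM (mean ± SD, n = 3). E2F1 went from 42.7% ± 5.01 in young and 43.9% ± 0.26 in old to 23.4% ± 1.28 in ICM, and E2F7 from 16.4% ± 1.05 and 15.0% ± 0.50 to 5.16% ± 1.43. Shares of these genes in ICM lay outside the ranges of young and old. RBL1 made up 11.1% ± 1.30 of the pocket protein sum in young, 5.51% ± 0.70 in old and 2.48% ± 0.47 in ICM, while RB1 took 47.4% to 54.2% on average and RBL2 41.4% to 46.2%. The ratio of E2F1 to RB1 per base of transcript was 0.979 ± 0.137 in young cells, 0.883 ± 0.159 in old cells and 0.212 ± 0.0397 after ICM, against 0.739 ± 0.127, 0.878 ± 0.149 and 0.766 ± 0.0223 for E2F3 to RB1.

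**Figure D3:**
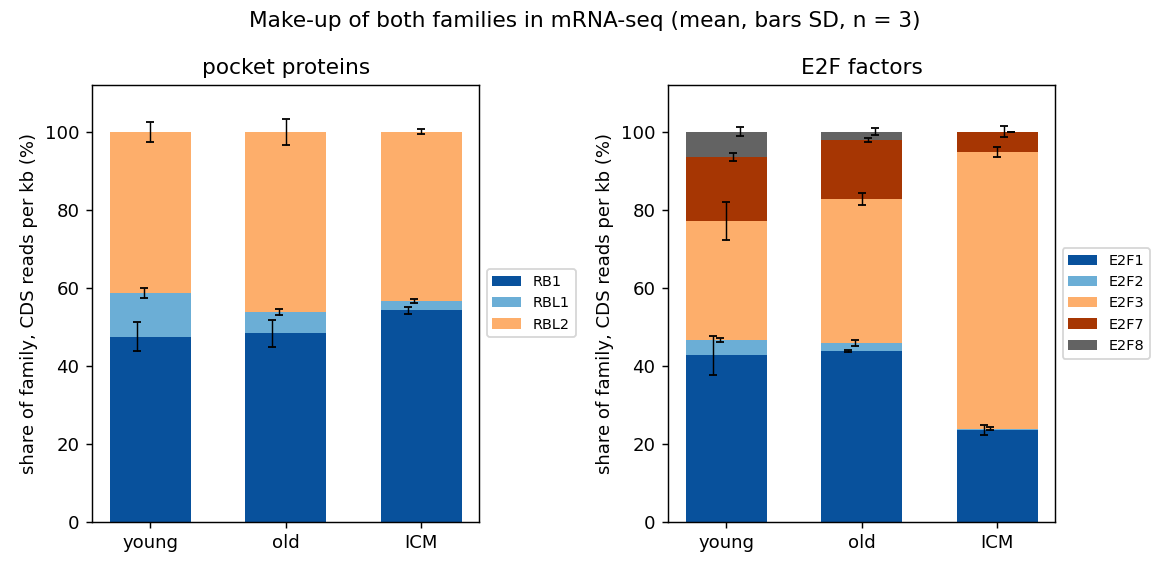
Share of each pocket protein gene (left) and each E2F regulator (right) in the summed mRNA level of its group (y axis, percent of CDS reads per kb). Segments are stacked means of 3 libraries with SD bars at the top of each. The E2F sum leaves out E2F4, E2F5 and E2F6. E2F3 takes 71.0% of this E2F sum in ICM against 30.6% in young, and RBL1 shrinks from 11.1% to 2.48% of the pocket proteins.

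Footprints asked whether ribosomes on these mRNAs changed in step, and the depth left little room for an answer. Only RB1 of the 10 genes passed the low-count filter, by which 4643 genes were tested. RB1 had 2, 56 and 164 footprints in young replicates 1 to 3, 83, 2 and 36 in old, and 23, 0 and 0 in ICM. These are 39.6, 89.5 and 104 CPM in young, 59.0, 40.2 and 73.9 in old, and 113, 0 and 0 in ICM. The ICM libraries went apart, since replicate 1 lay above all young libraries and a count of 0 allows no more than 40.9 CPM in replicate 2 and 68.5 in replicate 3. RB1 footprints passed no test, at -0.47 in ICM against young (95% interval -1.41 to 0.47, edgeR adjusted p = 0.486), -0.60 in old against young (-1.23 to 0.04, adjusted p = 0.132) and 0.13 in ICM against old (-0.88 to 1.13, adjusted p = 0.915). In the same order 26.6%, 36.3% and 13.4% of all genes tested were called at this adjusted p. Of the 3 RB1 changes, 0 passed at an unadjusted p under 0.05 either. RB1 entered the test of ICM against old through the young libraries, since with the ICM and old libraries alone it did not pass the low-count filter. The value in ICM rests on replicate 1, without which RB1 is at 0 footprints in ICM and is called lower (adjusted p = 0.0019 against young and 0.0188 against old), and the old value was called with the compared conditions alone (-0.61, adjusted p = 0.0163) and without ICM replicate 1 or 2 (0.0381 and 0.0304).

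The translational efficiency of RB1, the change of its footprints beyond that of its mRNA, did not pass the test either. Its log2 changes were -0.43 in ICM against young (95% interval -1.42 to 0.57), -0.35 in old against young (-1.05 to 0.35) and -0.08 in ICM against old (-1.11 to 0.96), with edgeR adjusted p = 0.729, 0.709 and 0.976. Of the 4618 genes tested, 2.38%, 1.43% and 0.346% were called. Without ICM replicate 1 the first of these changes was called (adjusted p = 0.0160). With the ICM and old libraries alone RB1 did not pass the filter here either.

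For the other 9 genes only counts of footprints could be had. FOXM1 had 3, 18 and 26 footprints in young, 7, 0 and 1 in old and 0 in every ICM library, and E2F7 had 0, 14 and 33, then 8, 0 and 1, then 0. Summed over 3 libraries, the 47 young footprints of each were 20.9 CPM (exact Poisson 95% interval 15.4 to 27.8). With 3 reads in the ICM libraries worth 9.37 CPM, the young level of both was 2.23 times what 0 reads allow in ICM, and 1.64 times at the lower limit of its interval, which covers counting error only. Because the ICM libraries were shallow, the next genes are given as summed CPM in young, old and ICM. RBL1 stood at 28.0, 5.15 and 3.12 CPM, and its ICM interval (0.0791 to 17.4) did not reach that of young (21.5 to 35.9). MYBL2 stood at 15.1, 4.63 and 9.37 CPM, E2F3 at 16.9, 14.4 and 3.12, and RBL2 at 27.6, 21.1 and 18.7, on 3, 1 and 6 ICM reads, and the ICM interval of each overlapped that of young. In reads, E2F1 had 15, 4 and 0, E2F8 had 5, 3 and 0, and E2F2 had 4, 4 and 0, where a loss in ICM was not detectable at this depth because the young level was itself below what 0 reads allow in ICM. When the low-count filter was dropped, edgeR called FOXM1 and E2F7 lower in ICM against young (adjusted p = 0.0208 and 0.0271), where 6.80% of 13714 genes were called down. In old against young it then called FOXM1 (log2 change -2.41, SE 0.63), E2F7 (-2.12, SE 0.62) and RBL1 (-2.33, SE 0.58), with adjusted p = 0.00241, 0.00770 and 0.00113 and 7.29% of genes called down.

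**Figure D4:**
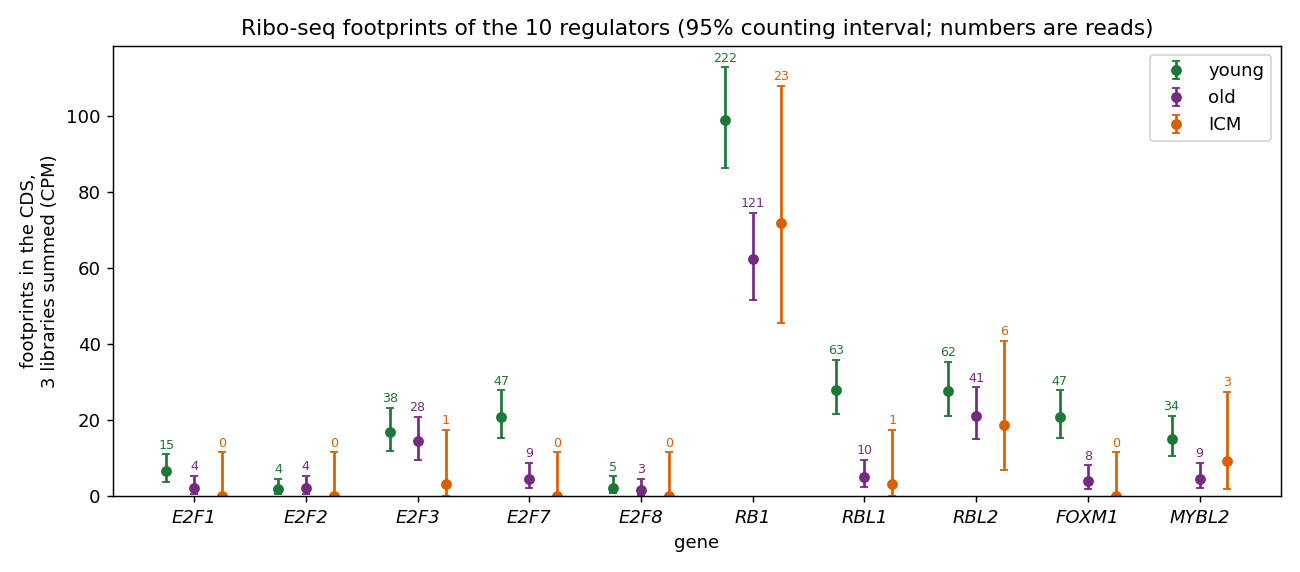
Ribo-seq footprints in the CDS of each regulator, summed over the 3 libraries of a condition (y axis, CPM, linear from 0), with exact Poisson 95% intervals and the number of reads above each bar. RB1 has 222, 121 and 23 reads in young, old and ICM, and all other genes have at most 63 in a condition.

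The genes downstream were described from lists of textbook targets. E2F targets of DNA replication, 22 genes such as the MCM helicase and its loaders, fell in ICM in 22 of 22 cases with a median log2 change of -2.94, and in old cells in 20 of 22 with a median of -1.36, where 36.1% and 33.7% of all genes were called down. SLBP and RPA2 were the others, at -0.01 and 0.17 in old. RRM2, a subunit of ribonucleotide reductase, fell from 167 ± 13.7 to 3.86 ± 0.65 CPM in ICM (mean ± SD, n = 3; log2 change -5.44, SE 0.11), and MCM10, a replication initiation factor, from 16.5 ± 2.43 to 4.53 ± 0.52 CPM in old (-1.86, SE 0.15). The 24 FOXM1 and MYBL2 targets of mitosis all fell in ICM, with a median of -5.64, and in old, with a median of -1.90, and again from old to ICM, with a median of -3.56, where 32.6% of all genes were called down. CENPF, a kinetochore protein, fell from 89.8 ± 10.4 to 14.02 ± 2.28 CPM in old (-2.67, SE 0.10). KIF20A, a mitotic kinesin, fell from 79.3 ± 3.02 to 0.252 ± 0.149 CPM in ICM (-8.24, SE 0.18).

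In footprints, 13 of the 22 E2F targets and 18 of the 24 mitotic targets passed the filter. Of these, 11 and 18 fell in ICM against young, where 12.9% of all genes were called down, 12 and 18 in old against young, where 17.0% were, and 4 and 1 in ICM against old, where 7.62% were. The filter ran over all 9 libraries of the assay, and a gene could pass it through the young libraries alone. The counts of falls from young are therefore in part set by the filter. The summed footprints of the 24 mitotic genes were 2535 to 2999 CPM in young and 560 to 865 CPM in old, but 168, 314 and 1187 CPM in ICM replicates 1 to 3, from 34, 23 and 52 reads. The same genes stood at 120 to 123 CPM in the mRNA-seq libraries of those ICM lysates. ICM replicate 3 thus lay above the old libraries in footprints and with its own group in mRNA, and the part of this in the results above was not tested.

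Partners of the regulators lay closer to 0 than these targets. The list of E2F partners and MuvB subunits counted 6 falls and 3 rises among 10 genes with ICM (median -0.28), and 4 falls and 1 rise in old cells (median -0.18). Over all genes 71.0% were called in the first comparison and 66.1% in the second, so that 5 of 10 in old cells was below the background. E2F4, the E2F of DREAM, was at -0.16 in ICM (edgeR adjusted p = 0.0279) and -0.13 in old (0.0891). Its relative E2F5 fell in both states, with log2 changes of -1.41 and -0.93. Of the dimerisation partners, TFDP1 fell in ICM (-0.43) and was at 0.12 in old, and TFDP2 was at 0.10 and -0.06, with no call. The repressor E2F6 rose in ICM (0.33) and was at -0.24 in old, without a call. MuvB divided, and its members are given for ICM first and old second. LIN9, a core subunit (-1.53 and -1.29), LIN54, which binds DNA (-0.55 and -0.60), and the histone chaperone RBBP4 (-0.39 and -0.67) fell. LIN37 rose by 0.35 and 0.49, and LIN52 by 0.53 in ICM, with 0.15 in old not called.

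Upstream of the pocket proteins, the cyclins, kinases and CDK inhibitors, 17 genes, were mixed. In ICM 10 fell and 6 rose (median -0.27), beside 36.1% of all genes down and 4597 of 13173 up. The share of rises in ICM was thus near that of all genes. In old 7 fell and 9 rose (median 0.40), beside 33.7% of all genes down and 32.4% up. CCNA2, the cyclin of S phase, had the largest fall in ICM, from 59.6 ± 1.69 to 4.58 ± 0.21 CPM (log2 change -3.70, SE 0.10), and the inhibitor CDKN1A (p21) the largest rise (2.69, SE 0.07). In old cells the extremes were CDKN2C (p18), at -1.94 (SE 0.13), and CCND2, the D-type cyclin, which went from 16.9 ± 0.18 to 174 ± 14.6 CPM (3.37, SE 0.08) and was at -0.27 in ICM.

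**Figure D5:**
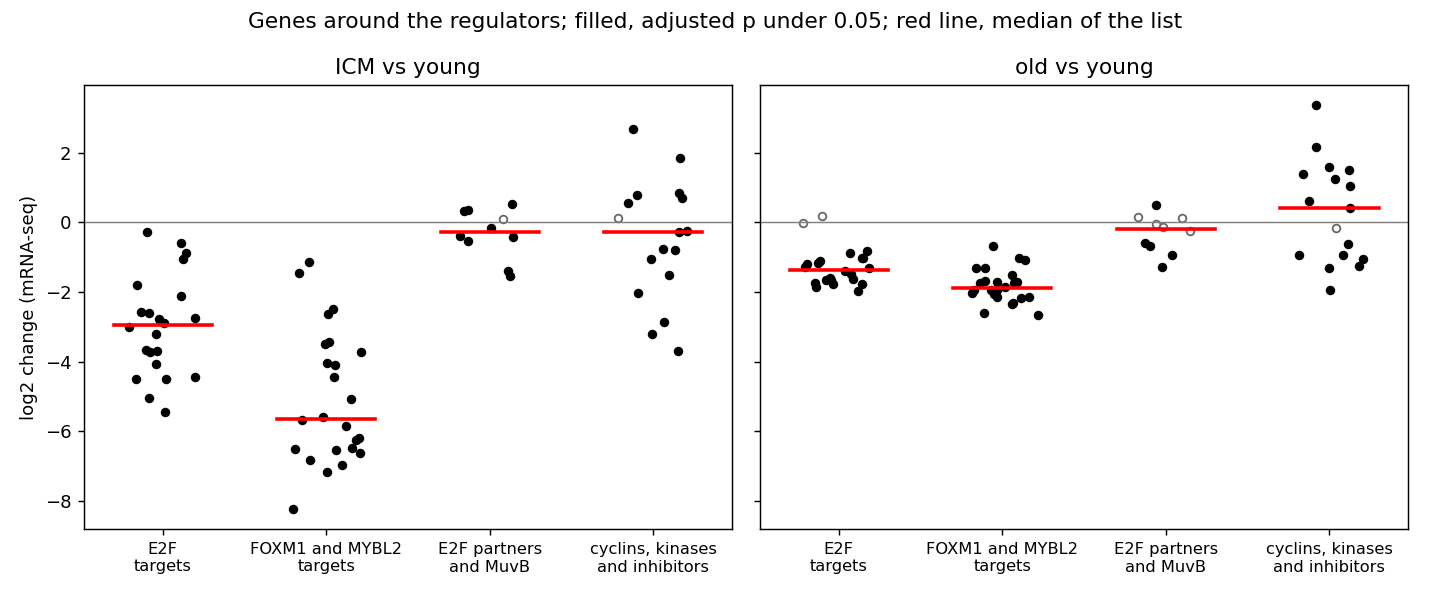
Log2 change in mRNA (y axis) of each gene in the 4 lists around the regulators, for ICM vs young (left) and old vs young (right); filled points passed edgeR at an adjusted p under 0.05 and the red line is the median. Both target lists lie below 0, with medians of -2.94 and -5.64 for ICM (left) and of -1.36 and -1.90 for old (right), while partners lie nearer to 0 and the upstream genes spread to both sides.

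Genes with the most similar course were sought over the 9 mRNA-seq libraries, as the smallest root mean square difference of centred log2(CPM + 1) among 10801 genes, which is a description of these libraries. Closest to FOXM1 were KIF2C, PRC1 and TK1, at 0.0957, 0.159 and 0.169, of which the first 2 encode a mitotic kinesin and a midzone bundling protein. MYBL2 ran closest to BIRC5, UBE2C and PLK1 (0.133, 0.237 and 0.239), and E2F8 to KIF23, CEP128 and GINS4 (0.167, 0.177 and 0.180). E2F2 had RFC2, COL16A1 and TNFAIP8L1 beside it, and RBL1 had CRMP1, HAUS5 and DCLRE1B. Adding 1 CPM damps the changes of scarce genes, so such matches need not share a fold change. E2F8 had 0 reads in ICM, whereas KIF23 went from 60.9 CPM in young to 9.70 in ICM. Likewise E2F2 fell 12.5-fold in ICM, whereas RFC2 went from 25.3 to 5.54 CPM. Closest to E2F1 were MYLK, CHAC1 and NYNRIN, and closest to E2F7 were FOXC2, ANXA3 and PTPRB. MYLK, the kinase of myosin light chain, stood at 937, 879 and 234 CPM on average in young, old and ICM, a course that lay within 0.0998 of that of E2F1. E2F3, RB1 and RBL2 were closest to JAM3, IMPA1 and ARHGEF4.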

How the data were processed

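Ribo-seq and mRNA-seq tables of 18 libraries were used, grouped by the condition, assay and replicate in the sample titles. Per the labels and the study's methods, the authors deposited estimated counts of reads per gene symbol, split by 5′ UTR, CDS, 3′ UTR and other classes and not scaled to depth. The submitters' processing notes name STAR 2.6.0c, featureCounts, DESeq2, deepTools and GRCh37, with no role, and the handling of strand and of reads with several matches is not given in the sources used here. Gene positions are from GENCODE on GRCh37.

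The mRNA level was the sum of both UTR columns and the CDS, and the footprint level was the CDS column. Estimated counts were rounded, filtered with filterByExpr, scaled by TMM and tested by the quasi-likelihood test of edgeR 4.0.16 (R 4.3.3), with all 9 libraries of an assay in 1 fit, with two-sided p-values adjusted over all genes tested by the Benjamini-Hochberg method. Translational efficiency was the interaction of assay and condition over 18 libraries with the lysate as a block, which rests on the methods' statement that lysates were divided; the study used anota2seq, which was not used here. SE was taken from the log2 change and its F statistic. A count of 0 was given the bound of 3 reads, and exact Poisson intervals cover counting error only. Each fit was tested on simulated counts.

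The 10 genes, the 4 lists and the alternatives were chosen with earlier results of these data known. Named genes were the 10, the partner and MuvB list, and in each other list the called gene with the largest fall and that with the largest rise, where its mean reached 5 CPM. SLBP and RPA2 were named after their values were seen. Alternatives were DESeq2 1.42.0, RLE scaling, other filters and thresholds, fits of the compared conditions only, CDS reads only, a replicate block and leaving out each replicate. Library sizes without a scaling factor, and leaving out both Ribo-seq libraries of low CDS share, were added after seeing the data.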

Additional observations from a re-analysis of the deposited data

How the results depend on the processing

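Of 22 mRNA changes called among 30 tested, 19 kept their call and direction under each of the alternatives in which they were tested. E2F1, E2F3 and E2F7 in old against young were the exceptions, the last only with the demand for a log2 change over 0.6. E2F8 in ICM against old, among the 19, did not pass the filter with the compared conditions alone and was not tested there. The demand for a log2 change over 0.6 left 5 of 8 regulators called in old against young, and 2, 3 and 0 of the partner and MuvB list in ICM against young, old against young and ICM against old (9, 5 and 4 without it). Leaving out each replicate in turn gave 6 to 8 regulators called in old against young in mRNA. In Ribo-seq, where 0 were called, dropping the filter gave 2 in ICM against young and 3 in old against young, the compared conditions alone gave 2 in old against young, and leaving out both libraries of low CDS share gave 1 and 2. Leaving out 1 replicate gave 0 to 2, 0 to 3 and 0 to 1 called in ICM against young, old against young and ICM against old. For translational efficiency in ICM against young it gave 0 to 1, the 1 being a fall without ICM replicate 1. Dropping the filter there gave 1 as well, but as a rise. Fewer or more genes pass the filter in these fits.

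Direction changed only for values that were not called in the main fit. RB1 footprints in ICM against old, reversed without ICM replicate 1, were called there (edgeR adjusted p = 0.0188). RB1 mRNA ran from -0.0382 to 0.107 in ICM against young, from -0.119 to 0.0656 in old against young and from -0.0591 to 0.126 in ICM against old when each replicate was left out. Library sizes without a scaling factor, which moved the median of all genes from -0.01 to -0.11 in old against young and from -0.01 to 0.11 in ICM against old, put RBL2 at -0.0416 in the first and E2F3 at 0.0124 in the second. With them 3541 genes were called up and 5243 down in old against young in mRNA (4271 and 4438 with TMM), and 5218 and 3328 in ICM against old (4049 and 4289). RB1 footprints in ICM against old were -0.256 with DESeq2, -0.0795 without the filter and -0.0356 without both libraries of low CDS share, and ran from -8.10 (without ICM replicate 1, a fitted value against 0 reads) to 0.517 when each replicate was left out. RB1 translational efficiency in ICM against old ran from -11.6 (likewise) to 0.306. The causes were not tested beyond the 0 reads named.

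Deviations of same-numbered libraries across conditions correlated with r between -0.06 and 0.10 in mRNA-seq. Libraries of the same lysate, taken as paired, gave r between -0.08 and 0.14 across assays. This measure therefore could not decide whether equal replicate numbers pair the conditions. With the replicate block 7, 8 and 7 regulators were called in mRNA in ICM against young, old against young and ICM against old, as without it, and 0 in Ribo-seq. With no replicate block for the lysate, RB1 translational efficiency in ICM against old was 0.13 and 0 were called. Over all genes, calls in Ribo-seq and translational efficiency moved by over 1.5 times in several of the alternatives, from 619 to 1758, 516 to 3142 and 332 to 924 in Ribo-seq and from 33 to 313, 20 to 409 and 3 to 63 in translational efficiency, in the order of comparisons above. In mRNA-seq they ran from 5055 to 9768, 4289 to 9097 and 3870 to 8775. Depth limited the footprints of these regulators. The filter left 9 of the 10 untested, and RB1 had footprints in 1 ICM library only.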

Other observations

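The 3′ UTR of RBL1 held a share of its mRNA reads that differed between conditions. It took 27.9%, 23.1% and 32.3% of RBL1 reads in young replicates 1 to 3, 34.7%, 41.7% and 33.1% in old, and 45.5%, 51.9% and 46.7% in ICM. The conditions did not overlap, on 369 reads in young, 218 in old and 130 in ICM summed. The 3′ UTR took 24.6% to 28.9% of the coding reads of a whole mRNA-seq library. RBL1 counts in the 3′ UTR were in part fractions of reads, and its exons share 213 bases with a lncRNA on the opposite strand, whose part in this was not tested. In E2F3 the same share was 65.0% ± 2.21 in young cells, 67.5% ± 3.33 in old cells and 67.0% ± 0.97 after ICM (mean ± SD, n = 3), and in FOXM1 22.8% ± 3.26, 24.1% ± 5.37 and 24.7% ± 10.3. RBL1 was noticed after the data were seen, as the gene whose share differed most, and no test was run on it.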
